A study of Mus musculus with 6 samples.

Results

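The core interferon-stimulated effectors are genes whose products act against viruses or regulate that response, and 10 of them were followed in cultured mouse keratinocytes, the main cells of the epidermis. They are Ifit1, Ifit2, Ifit3, Ifi44, Ifi27, Isg15, Rsad2, Usp18, Bst2 and Mx1, a list chosen by name. All 10 were found among the 43629 genes of the deposited count table and were among the 16829 genes tested. Epidermis of P3 mice was the source of the cells, and poly(A) RNA of 3 control and 3 Dnmt1Δ/Δep libraries was sequenced. In Dnmt1Δ/Δep mice, both floxed alleles of Dnmt1, the maintenance DNA methyltransferase, are deleted by Cre under the Keratin 5 promoter, which acts in stratified epithelia, so other cells in the culture could keep the gene. Controls in the study are Dnmt1 f/f or Dnmt1 f/+ mice without Cre, and its survival plot also counts Cre-positive heterozygotes as controls. The labels of these 3 samples say control only. All mice were of a mixed genetic background and all samples are labelled female. The cells grew for 5 days in low-calcium medium with chelated serum, according to the methods and the labels, a time that a legend gives otherwise. The comparison asked whether keratinocytes that lost Dnmt1 differ in innate immune genes without the rest of the skin. The methods give 3 mice per group as biological replicates, while the labels do not say whether each library is 1 animal. The p-values measure the spread between these libraries.

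Interferons are secreted proteins that cells release on sensing foreign or misplaced nucleic acid. Type I and type III interferons bind receptors on the cell surface, and the kinases Jak1 and Tyk2 then activate transcription factors that bind the interferon-stimulated response element, a DNA element with repeats of GAAA, near the start of their target genes. Some of these genes are also driven by interferon regulatory factors alone, without a secreted interferon. Keratinocytes respond to interferons of both types, and high levels of these genes mark several inflammatory skin diseases.

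Gene reads ranged from 53433121 to 115526598 per library, and levels are given as CPM, counts scaled to a common total of reads in the normalized library. Dnmt1 itself fell by 2.83 on the log2 scale (SE, standard error, 0.11, adjusted p = 8.1e-05 by edgeR), from 366 ± 37.2 to 51.6 ± 2.44 CPM (SD, n = 3). Replicates 1, 2 and 3 of both groups shared lanes of the flow cell, and libraries of 1 number deviated together. The keratinocyte label was borne out by Krt5, a keratin of basal cells, at 17880 ± 1179 CPM in the control and 12655 ± 112 CPM in Dnmt1Δ/Δep libraries (SD, n = 3).

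The effectors differ in what lies before their transcription start, and the sequences show where. Promoter windows from RefSeq (build GRCm38.p6), from 250 bases before to 50 after the start, were at hand for 7 of the 10 effectors, in 8 windows, since Ifit2 has 2 starts. Windows for Usp18, Ifi27 and Mx1 were not used here. Each window was searched on both strands for GAAA, any 2 bases, GAAA, the core of the interferon-stimulated response element, with overlapping matches counted. At least 1 match stood in the windows of 5 effectors, Isg15, Bst2, Rsad2, Ifit1 and Ifit3, and none in those of Ifit2 and Ifi44. Ifi44 was called higher without a match, and repeats with other spacing were not searched. Of all 32851 RefSeq windows, 1131 (3.44%) held a match. Isg15 had 3 overlapping matches, beginning 78, 72 and 66 bases before the start. The 200 bases before the start are printed for Isg15 (chr4:156200819-156201018, minus strand) and Bst2 (chr8:71537473-71537672, minus strand), the effectors called higher under all 12 alternative settings. They are also printed for Ifit2 (chr19:34550494-34550693), Ifit3 (chr19:34583329-34583528) and Ifit1 (chr19:34640689-34640888), all on the plus strand, members of 1 gene cluster, of which Ifit1 alone was called. The sequences run 5′ to 3′ on the gene's strand, with matches on either strand in capitals, and for Ifit2 the first start is shown.
Isg15: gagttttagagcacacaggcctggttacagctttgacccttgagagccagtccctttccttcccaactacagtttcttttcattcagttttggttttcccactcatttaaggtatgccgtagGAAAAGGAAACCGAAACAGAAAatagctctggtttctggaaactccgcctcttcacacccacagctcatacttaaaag
Bst2: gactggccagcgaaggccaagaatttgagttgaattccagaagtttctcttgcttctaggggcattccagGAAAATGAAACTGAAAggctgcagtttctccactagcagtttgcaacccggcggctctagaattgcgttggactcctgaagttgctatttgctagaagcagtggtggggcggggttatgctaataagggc
Ifit1: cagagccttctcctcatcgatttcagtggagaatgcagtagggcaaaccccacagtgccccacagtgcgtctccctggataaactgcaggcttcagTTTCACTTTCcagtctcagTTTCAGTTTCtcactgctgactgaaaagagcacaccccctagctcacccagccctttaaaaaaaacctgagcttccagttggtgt
Ifit3: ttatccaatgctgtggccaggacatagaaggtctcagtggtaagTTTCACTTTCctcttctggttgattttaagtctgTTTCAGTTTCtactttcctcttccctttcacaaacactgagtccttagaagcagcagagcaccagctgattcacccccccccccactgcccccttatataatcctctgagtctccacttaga
Ifit2: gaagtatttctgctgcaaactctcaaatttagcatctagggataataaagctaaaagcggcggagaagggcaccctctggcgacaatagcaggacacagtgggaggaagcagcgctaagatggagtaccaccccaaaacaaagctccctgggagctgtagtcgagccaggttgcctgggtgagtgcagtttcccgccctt

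In Bst2 the matches overlapped and began 130 and 124 bases before the start, in Ifit1 they began 104 and 85 bases before it, and in Ifit3 156 and 122 bases before it. Rsad2 had 1 match, 120 bases before its start. A second motif, TTC, any 3 bases, GAA, the core of the gamma-activated site, was found in 2726 of all windows (8.30%), and among the effectors once each in Bst2 and in 1 window of Ifit2. CpG, the dinucleotide that Dnmt1 keeps methylated, occurred 6 times each in the windows of Ifi44, Isg15 and Rsad2 and 11 times in that of Bst2. It occurred 4 times in that of Ifit1, once (1) in that of Ifit3, and 10 and 11 times in those of Ifit2, beside a median of 7 over all windows (quartiles 3 and 20). A match here describes letters only, and methylation of these bases was not measured.

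**Figure D1:**
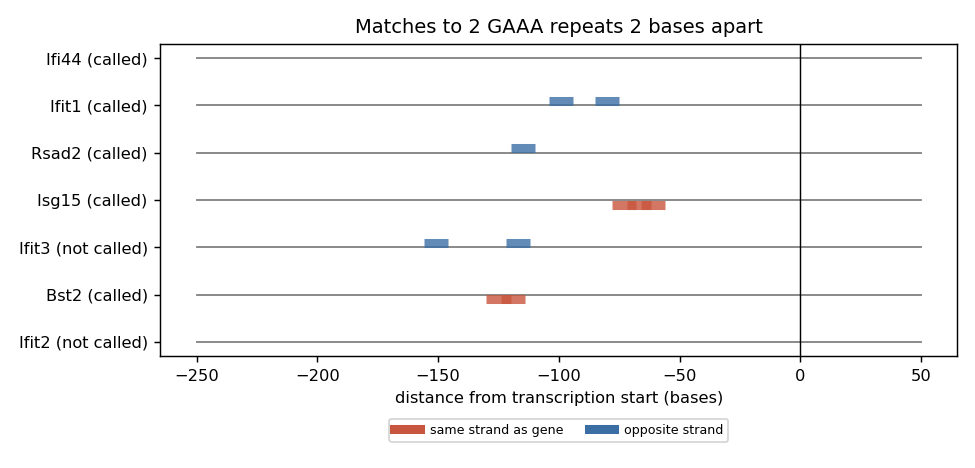
Positions of matches to GAAA, any 2 bases, GAAA, in the RefSeq promoter windows of 7 effectors, in bases from the transcription start (0). Grey lines are windows, coloured bars are matches by strand, and both Ifit2 windows share 1 line. Isg15, Bst2, Rsad2, Ifit1 and Ifit3 have matches between 156 bases before the start and the start itself, and Ifi44 and Ifit2 have none.

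Of the 10 effectors, 7 rose in Dnmt1Δ/Δep keratinocytes, namely Ifit1, Ifi44, Ifi27, Isg15, Rsad2, Usp18 and Bst2. None was called lower by edgeR, with 0 lower at an unadjusted p under 0.05 and every fold change by DESeq2 above 0, and Ifit2, Ifit3 and Mx1 were not called. A call needed a change of 2-fold or more (log2 fold change 1) with an adjusted p no higher than 0.05 in the quasi-likelihood test of edgeR, where p-values were adjusted after Benjamini and Hochberg for all genes tested. The number called was 2 without control replicate 2, 3 without Dnmt1Δ/Δep replicate 1 or 3, 4 without Dnmt1Δ/Δep replicate 2, and 4 of the 5 effectors with a mean RPKM of at least 1. By the same rule 6.03% of all genes tested were called higher and 0.392% lower. The log2 fold changes of the 10 effectors had a median of 2.47, beside 0 over all genes tested. For 9 effectors all 3 Dnmt1Δ/Δep libraries lay above all 3 control libraries, Ifit2 being the exception, which held for 18.2% of all genes tested. In these bulk libraries, more cells that express a gene and more RNA per cell cannot be told apart. One (1) effector, Ifi44, passed the filter on low counts through the Dnmt1Δ/Δep libraries alone, since none of its control libraries reached the filter's 0.109 CPM. Ifit1, Rsad2 and Mx1 reached it in 2 of 3 control libraries, and the other effectors in all.

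**Figure D2:**
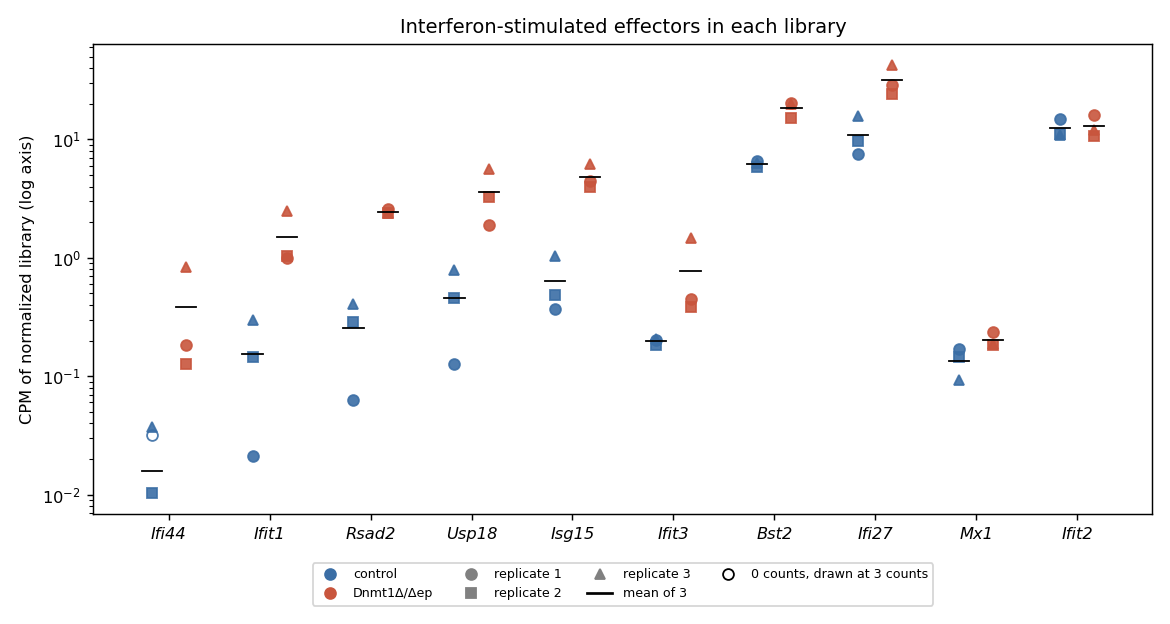
CPM of the 10 effectors in each of the 6 libraries on a log axis, with points by group and replicate and a bar at each group's mean. Genes run from the largest to the smallest fold change, the open circle marks 0 counts drawn at the level of 3 counts, and the groups overlap in Ifit2 only.

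The IFIT proteins bind foreign RNA and block its translation, and their genes form a cluster on chromosome 19, where relatives lie between Ifit3 and Ifit1. Ifit1 (ENSMUSG00000034459, GRCm38 chr19:34640871-34650009, as annotated by GENCODE M21), which binds RNA whose cap lacks a methyl group, had 0.0211, 0.144 and 0.298 CPM in control replicates 1, 2 and 3. In Dnmt1Δ/Δep replicates 1, 2 and 3 it had 0.990, 1.04 and 2.50 CPM. The groups did not overlap, and control replicate 1 was lowest, with 2 reads. Ifit1 rose by 3.39 on the log2 scale (SE 0.78, adjusted p = 0.038 by edgeR). The call was lost without control replicate 2 and without any 1 of the Dnmt1Δ/Δep libraries, with adjusted p up to 0.14 by edgeR.

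Ifit3 (ENSMUSG00000074896, chr19:34583531-34588731), a partner that stabilizes Ifit1 on RNA, had 0.201, 0.185 and 0.205 CPM in the control libraries. It had 0.453, 0.382 and 1.47 CPM in the Dnmt1Δ/Δep libraries, with replicate 3 far above the other two. The groups did not overlap, but the log2 fold change of 1.98 (SE 0.58, 95% interval 0.62 to 3.33) missed the call at an adjusted p of 0.080 by edgeR. Without Dnmt1Δ/Δep replicate 3 the log2 fold change was 1.08, with an adjusted p of 0.21 by edgeR. DESeq2 called Ifit3, with an adjusted p of 0.014, and so did edgeR without the filter on low counts, with an adjusted p of 0.034.

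Ifit2 (ENSMUSG00000045932, chr19:34550694-34576419), which binds AU-rich RNA, had 14.9, 11.2 and 11.0 CPM in the control and 16.1, 10.6 and 12.0 CPM in Dnmt1Δ/Δep libraries. The groups overlapped, with replicate 1 highest in both. Its log2 fold change was 0.06 (SE 0.20, adjusted p = 0.92 by edgeR), and the 95% interval from -0.42 to 0.53 lies below a 2-fold rise. It was called in none of 12 alternative settings. With 593 to 1418 reads in every library, depth did not limit this gene.

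The difference between these genes was also taken within each library. The log2 ratio of Ifit1 to Ifit2 was -9.47, -6.28 and -5.21 in the control and -4.02, -3.35 and -2.27 in the Dnmt1Δ/Δep libraries. That is a mean difference of 3.77, with no overlap between the groups. The ratio of Ifit3 to Ifit2 was -6.22, -5.92 and -5.75 in control and -5.15, -4.80 and -3.04 in Dnmt1Δ/Δep libraries, a mean difference of 1.64. For Ifit1 over Ifit3 the mean difference was 2.14, again with no overlap. Each of these 3 comparisons had p = 0.1 in an exact two-sided permutation test that takes no account of lanes, the smallest p that 3 libraries against 3 allow, and adjustment over the 3 leaves it at 0.1. This test cannot pass 0.05 at this size. These ratios were not among the planned comparisons, and the Ifit1 value of control replicate 1 rests on 2 reads. Between same-numbered libraries the ratio of Ifit1 to Ifit2 differed by 5.45, 2.93 and 2.95, that of Ifit3 to Ifit2 by 1.07, 1.12 and 2.72, and that of Ifit1 to Ifit3 by 4.38, 1.81 and 0.23, higher in Dnmt1Δ/Δep libraries in each case. The 95% intervals of the log2 fold changes by edgeR were 1.56 to 5.22 for Ifit1 and -0.42 to 0.53 for Ifit2, without overlap. Ifit2 had the highest CPM of the 3 in every library.

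Isg15 (ENSMUSG00000035692, chr4:156199424-156200818) encodes a ubiquitin-like protein that is attached to other proteins and is also secreted. It had 0.370, 0.482 and 1.04 CPM in the control and 4.45, 3.97 and 6.14 CPM in Dnmt1Δ/Δep libraries. The lowest Dnmt1Δ/Δep library stood well above the highest control library. Isg15 rose by 2.97 on the log2 scale (SE 0.42, 95% interval 1.99 to 3.95, adjusted p = 0.0063 by edgeR). It was called in all 12 alternative settings, including each fit without 1 library.

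Usp18 (ENSMUSG00000030107, chr6:121245906-121270917) encodes the protease that takes Isg15 off its targets and also damps signalling at the type I interferon receptor. It had 0.127, 0.462 and 0.782 CPM in the control and 1.91, 3.25 and 5.64 CPM in Dnmt1Δ/Δep libraries, with replicate 1 lowest and replicate 3 highest in both groups. Usp18 rose by 3.02 on the log2 scale (SE 0.66, adjusted p = 0.032 by edgeR). The call was lost without control replicate 2 and without any 1 of the Dnmt1Δ/Δep libraries, with adjusted p up to 0.12 by edgeR. Of its exons, 4.44% overlap a gene on the opposite strand, and whether the counting used strand is not given in the sources used here.

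Rsad2 (ENSMUSG00000020641, chr12:26442746-26456452) encodes viperin, an enzyme that makes a nucleotide which ends viral RNA chains. Control libraries had 0.0634, 0.287 and 0.410 CPM, with 6 reads in replicate 1. Dnmt1Δ/Δep libraries had 2.60, 2.39 and 2.38 CPM, the closest agreement of any effector that rose. Rsad2 rose by 3.32 on the log2 scale (SE 0.56, adjusted p = 0.012 by edgeR), and lost the call only without control replicate 2, at an adjusted p of 0.056 by edgeR.

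Ifi44 (ENSMUSG00000028037, chr3:151730922-151749960), which encodes a cytoplasmic protein induced in many viral infections, was the least abundant effector in the control libraries. It had 0, 1 and 2 reads there and 11, 11 and 99 reads in the Dnmt1Δ/Δep libraries. As CPM these were 0, 0.0103 and 0.0372 against 0.185, 0.127 and 0.839, where a count of 0 in control replicate 1 allows up to 0.0317 CPM. Summed over each group's libraries, the rate was 37.5 times the control rate, with an exact 95% interval from 12.5 to 185 that covers counting error only. The adjusted p was 0.044 by edgeR, and the call was lost in each of the 6 fits without 1 library, with adjusted p up to 0.16. Dnmt1Δ/Δep replicate 3 held most of these reads, and without it the ratio was 12.3 (interval 3.71 to 64.4).

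Ifi27 (ENSMUSG00000064215, chr12:103434211-103440239), a small hydrophobic membrane protein of mitochondria and the nuclear envelope, had 7.60, 9.67 and 15.7 CPM in the control libraries. It had 28.7, 24.0 and 42.2 CPM in Dnmt1Δ/Δep libraries, with replicate 3 highest in both groups. Ifi27 rose by 1.53 on the log2 scale (SE 0.31, adjusted p = 0.025 by edgeR). The call was lost without control replicate 2, Dnmt1Δ/Δep replicate 1 or Dnmt1Δ/Δep replicate 3, with adjusted p up to 0.10 by edgeR.

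Bst2 (ENSMUSG00000046718, chr8:71534255-71537456) encodes tetherin, which holds budding virus particles at the cell surface. It had 6.52, 5.80 and 6.31 CPM in the control and 20.4, 15.1 and 20.0 CPM in Dnmt1Δ/Δep libraries. The libraries of each group lay close together and far from the other group. Bst2 rose by 1.58 on the log2 scale (SE 0.16, 95% interval 1.20 to 1.95, adjusted p = 0.0017 by edgeR), with the smallest standard error of the effectors that rose, and was called in all 12 alternative settings.

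Mx1 (ENSMUSG00000000386, chr16:97447035-97462907) encodes a GTPase that blocks influenza virus and of which many inbred mouse strains carry a defective form. It had 0.169, 0.144 and 0.0931 CPM in the control and 0.235, 0.185 and 0.186 CPM in Dnmt1Δ/Δep libraries. These were 16, 14 and 5 reads against 14, 16 and 22. The groups did not overlap, but the log2 fold change was 0.54 (SE 0.40, adjusted p = 0.50 by edgeR). With a 95% interval from -0.40 to 1.47, a 2-fold rise of Mx1 was neither shown nor excluded at this depth.

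**Figure D3:**
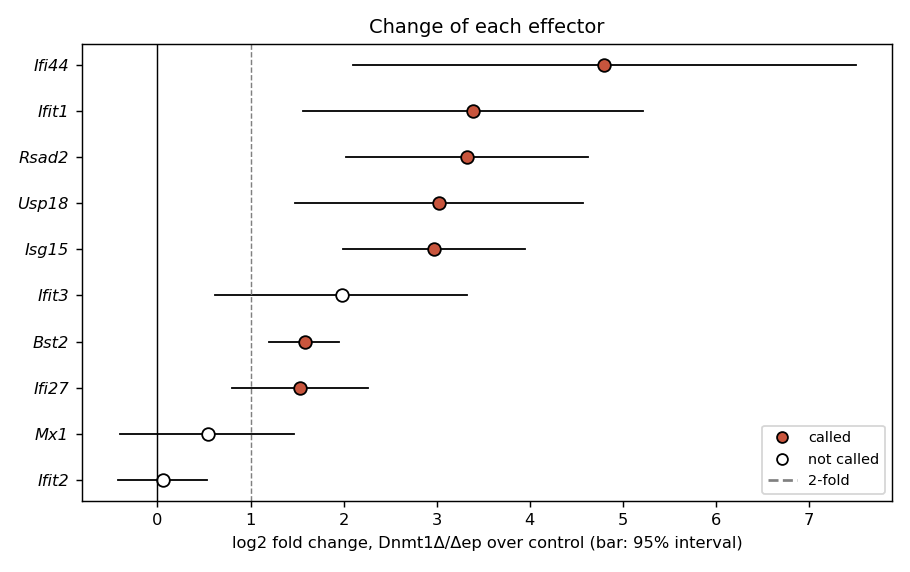
Log2 fold change of each effector, Dnmt1Δ/Δep over control, with its 95% interval from edgeR as a bar. Filled points are called, open points are not, and the dashed line marks 2-fold. The interval of Ifit2 ends at 0.53, below those of the 7 called effectors, which begin at 0.80 or above.

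Compared per length, as RPKM over the summed exons of a gene, the control keratinocytes held the effectors at very unequal levels. Ifi27 (7.48 RPKM) and Bst2 (6.88 RPKM) were highest, with overlapping libraries, followed by Ifit2 at 3.15 and Isg15 at 0.835 RPKM, each apart from its neighbours. Usp18 (0.164), Ifit3 (0.113), Rsad2 (0.0585), Ifit1 (0.0581) and Mx1 (0.0357 RPKM) followed, and among these only Ifit3 and Rsad2 were neighbours without overlap. Ifi44 was last at 0.00258 RPKM. In the Dnmt1Δ/Δep libraries Ifi27 (21.6 RPKM) and Bst2 (20.5 RPKM) still led and overlapped. Isg15 stood at 6.42 and Ifit2 at 3.28 RPKM, so that these effectors changed places in the order. Usp18 (1.29), Ifit1 (0.569), Rsad2 (0.567) and Ifit3 (0.440 RPKM) overlapped from neighbour to neighbour, and Ifi44 (0.0626) and Mx1 (0.0534 RPKM) were lowest and overlapped.

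Within a group the effectors varied by library. Control replicate 3 was the highest control library for 7 of the 10 effectors, and control replicate 1 the lowest for 6. Among the Dnmt1Δ/Δep libraries replicate 3 was highest for 6 effectors and replicate 2 lowest for 7. Ifit2, Mx1 and Bst2 had their highest control value in replicate 1. The rise was also read within each lane, as the log2 ratio of same-numbered libraries. It was 5.55, 2.86 and 3.07 for Ifit1, 5.36, 3.06 and 2.54 for Rsad2, and 3.59, 3.04 and 2.56 for Isg15. Bst2 gave 1.64, 1.38 and 1.67, and Ifit2 gave 0.10, -0.07 and 0.12. Each of the 4 effectors that rose was higher in all 3 lanes. With the replicate number as a block, the call of none of the 10 effectors changed.

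**Figure D4:**
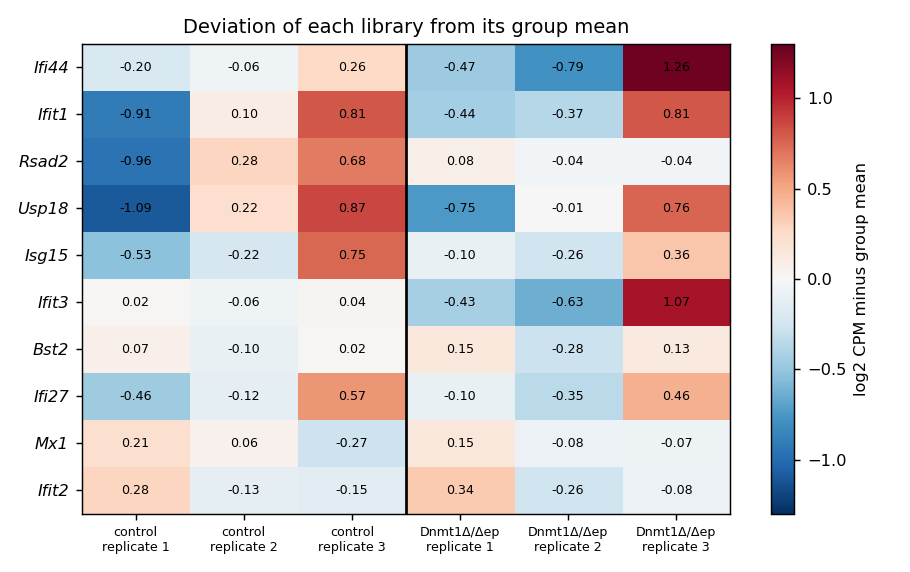
Deviation of each library from its group's mean on the log2 CPM scale (pseudocount 0.1), for the 10 effectors in rows and the 6 libraries in columns, with red above and blue below the mean. Control replicate 3 and Dnmt1Δ/Δep replicate 3 are red for most effectors, with Ifi44 at 1.26 and Ifit3 at 1.07 in the latter.

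The genes whose deviations were most like the effectors' mean deviation over the 6 libraries were Zdhhc15, Fam13c, Irgm1, Ttll7 and Ccdc8, out of 12457 genes compared. Their root mean square difference from it was 0.028 to 0.065 on the log2 scale, beside a median of 0.346 over all genes compared. Of these 5, Irgm1, an interferon-induced GTPase, also rose between the groups (log2 fold change 2.11, adjusted p = 0.0059 by edgeR). The other 4 were not called. Same-numbered libraries share a lane, and this likeness over 6 libraries is a description with no test.

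Around the effectors, 78 other genes of the interferon pathway were tested, of 107 listed with earlier results of these data known. Of them 31 were called higher and 0 lower, beside 6.03% and 0.392% of all genes tested. The median log2 fold change was 1.10, with 0 lower at an unadjusted p under 0.05 by edgeR. Uba7, Irf8 and 4 other called genes passed the filter on low counts through the Dnmt1Δ/Δep libraries alone. The replicate block raised the number called higher to 36. It was 15 without control replicate 2, 19 without Dnmt1Δ/Δep replicate 1 and 17 without Dnmt1Δ/Δep replicate 3.

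Interferon ligands gave almost no reads. Of the 21 ligand genes, 15 had no read in any library and none passed the filter on low counts. Without that filter the 6 with a read were tested by edgeR, and 0 were called. Ifnb1 had 0 reads in the control and 0, 1 and 2 in the Dnmt1Δ/Δep libraries. Ifna1 and Ifnab had 1 read each in control replicate 2, Ifne had 1 in Dnmt1Δ/Δep replicate 1 and Ifnk 1 in Dnmt1Δ/Δep replicate 2. Ifnz had 0, 0 and 2 reads in the control and 2, 0 and 5 in the Dnmt1Δ/Δep libraries. A count of 0 allows up to 3 counts, or 0.0254 to 0.0558 CPM by library, so a difference in ligands within these limits was not detectable.

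None of the 14 receptor and transducer genes was called by edgeR or by DESeq2 on all libraries, and 1, the feedback inhibitor Socs1, was called by edgeR without control replicate 1. There were 3 higher and 0 lower at an unadjusted p under 0.05 by edgeR, and the median log2 fold change was 0.11. The type I receptor chains Ifnar1 and Ifnar2 had log2 fold changes of 0.12 and -0.05 (adjusted p = 0.51 and 0.87 by edgeR). Stat2, a transcription factor activated at that receptor, had a log2 fold change of 0.07 (adjusted p = 0.88 by edgeR). Irf9, its DNA-binding partner, had 14.1 ± 5.06 and 23.4 ± 6.17 CPM (SD, n = 3), which gave a log2 fold change of 0.73 (adjusted p = 0.18 by edgeR). Of the 7 interferon regulatory factors tested, Irf1 rose by 1.96 and Irf8 by 2.89 on the log2 scale (adjusted p = 0.0010 and 0.011 by edgeR), of which Irf8 was not called without control replicate 2. Irf8 passed the filter on low counts through the Dnmt1Δ/Δep libraries alone. Irf7, which amplifies type I interferon production, had 1.72 ± 0.537 and 2.25 ± 0.866 CPM (SD, n = 3), with an adjusted p of 0.58 by edgeR.

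All 4 genes that attach Isg15 to proteins lay above control in every Dnmt1Δ/Δep library, as did 18.2% of all genes tested. Of the 4, 1 was called. Uba7, the activating enzyme, rose by 3.10 on the log2 scale (adjusted p = 0.012 by edgeR), from 2, 7 and 3 reads to 25, 28 and 65. No control library of Uba7 reached 0.109 CPM, so it too was tested through the Dnmt1Δ/Δep libraries alone. Ube2l6, the conjugating enzyme, and Herc6, the ligase, had log2 fold changes of 1.11 and 1.23 (adjusted p = 0.12 and 0.057 by edgeR). With the replicate block both were called, at 1.16 and 1.15 (adjusted p = 0.041 and 0.046 by edgeR). Trim25, a ligase for RIG-I as well, had a log2 fold change of 0.65 (adjusted p = 0.0096 by edgeR), under 2-fold.

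Close relatives of the effectors had few reads. Ifi27l2a, Ifi27l2b and Mx2 had log2 fold changes of 1.75, 2.08 and 1.73 and were not called (adjusted p = 0.12, 0.20 and 0.35 by edgeR). In the edgeR fit without control replicate 1, 6 relatives were tested and 1 was called higher. Not tested for low counts were Ifit3b (0, 1 and 4 reads in the control, 8, 5 and 31 in Dnmt1Δ/Δep libraries), Ifit1bl1 (8, 5 and 5 against 5, 11 and 15) and Ifit1bl2 (8, 0 and 0 against 5, 4 and 10). Cmpk2, the neighbour of Rsad2, had 4, 9 and 3 against 4, 10 and 49 reads. Ifi44l had no read. Ifit3b is a near copy of Ifit3, so reads of both may have been split or dropped by the authors' counting of uniquely mapped reads, and the values of Ifit3 are uncertain to that extent.

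Of 50 other interferon-stimulated genes tested, 28 rose and 0 fell, where 6.03% of all genes tested were called higher. The median log2 fold change of the 50 was 1.69. Between 13 (without control replicate 2) and 25 (without control replicate 3) were called in fits without 1 library, with 16 without Dnmt1Δ/Δep replicate 1 and 14 without replicate 3. The 5 largest fold changes were those of Iigp1, Oasl2, Oas2, Trim30a and Ddx60. Iigp1, a GTPase against intracellular parasites, had 1 read in the control and 89 in the Dnmt1Δ/Δep libraries (ratio of rates 82.8, exact 95% interval 14.5 to 3308). Oas2, which makes the messenger that activates RNase L, had 4 reads against 90 (ratio 20.9, interval 7.90 to 78.5), and its relative Oasl2 rose by 4.16 on the log2 scale (adjusted p = 0.027 by edgeR). Trim30a had 7 reads against 137 (ratio 18.2, interval 8.61 to 46.2), and Ddx60, a helicase, had 1, 7 and 3 reads against 36, 23 and 124 (adjusted p = 0.023 by edgeR). Of these 5, all but Oasl2 stayed under 0.109 CPM in each control library and were tested through the Dnmt1Δ/Δep libraries alone, so their place in the order is uncertain. These were 4 of the 28 called genes. The exact intervals given here cover counting error only, not the spread between libraries. Dnmt1Δ/Δep replicate 3 held 66 of the 89 reads of Iigp1 and 103 of the 137 of Trim30a, and without it the ratios, computed after the data were seen, were 38.7 (interval 6.28 to 1594) and 8.17 (interval 3.57 to 21.8). The smallest were those of Adar, Eif2ak2, Ifitm2, Ifi35 and Tor3a, with log2 fold changes between -0.04 and 0.16, none called. Adar, which edits double-stranded RNA, had 78.2 ± 4.44 and 76.3 ± 9.42 CPM, and Eif2ak2, the RNA-activated kinase PKR, 48.7 ± 5.19 and 47.9 ± 8.18 CPM (SD, n = 3). In all 5 the groups overlapped, and 40.9% of the exons of Ifitm2 are shared with another gene, so its counts are uncertain. In the promoter windows, the GAAA match stood in 12 of 22 called genes that had a window (54.5%) and in 8 of 17 not called (47.1%).

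**Figure D5:**
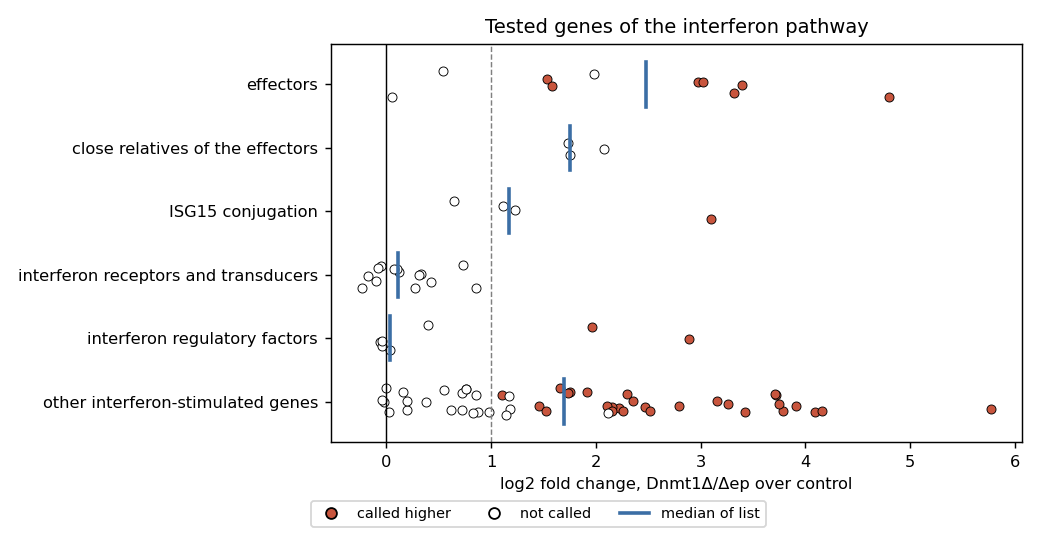
Log2 fold change, Dnmt1Δ/Δep over control, of the tested effectors and of the tested genes in 5 other lists of the interferon pathway, with 1 point per gene, filled where called higher, and a bar at each list's median. The medians are 2.47 for the effectors, 1.69 for other interferon-stimulated genes and 0.11 for receptors and transducers.

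Some markers of other cells also differed between the groups, where 6.03% of all genes tested were called higher. Of 14 leukocyte markers 6 were tested and 4 rose (Itgam, Csf1r, S100a8 and S100a9), and the summed level was 101 to 189 CPM in the control and 294 to 363 CPM in Dnmt1Δ/Δep libraries. In fits without 1 library, 0 (without Dnmt1Δ/Δep replicate 1) to 5 (without control replicate 3) of them were called, with 1 without Dnmt1Δ/Δep replicate 2 and 2 in the others. Itgam shares 68.7% of its exons with another gene and Csf1r 15.1%, so their counts are uncertain. Nearly all of that sum came from Cd68, S100a8 and S100a9, which keratinocytes can also express. Itgam had 0.127, 0.185 and 0.614 CPM in the control and 1.19, 1.54 and 1.78 CPM in Dnmt1Δ/Δep libraries, and Csf1r 0.137, 0.390 and 0.186 against 2.42, 0.786 and 1.43 CPM. Cd74 had 0, 0 and 7 reads against 29, 14 and 43, without overlap (adjusted p = 0.14 by edgeR). Of the other markers, Ptprc, which defines leukocytes, had 0, 0 and 2 reads against 12, 1 and 0, and Lyz2 had 1, 0 and 1 against 6, 0 and 2. Fcer1g had 7, 8 and 0 reads against 5, 5 and 10, and Cd3e 0, 1 and 1 against 1, 2 and 1. Tyrobp, Adgre1 and Cd207 had at most 1 read in any library, and Siglech had 0 in each. The 5 melanocyte markers summed to 204 to 536 CPM in the control and 646 to 873 CPM in Dnmt1Δ/Δep libraries, with none called by edgeR on all libraries, 1 without control replicate 3, and 1, Tyrp1, by DESeq2. With the replicate block, Dct and Tyrp1 were called at log2 fold changes of 1.02 and 1.14 (adjusted p = 0.027 and 0.026 by edgeR), and Csf1r was not (2.61, adjusted p = 0.053). The 4 endothelial markers summed to 4.39 to 16.8 CPM and 14.1 to 22.4 CPM, and Pecam1 and Cdh5 rose, whereas Kdr had a log2 fold change of -0.16 (adjusted p = 0.93 by edgeR) with overlapping groups. DESeq2 called 3 of the 4, and with the replicate block Tie1 was called as well, at 2.43 (adjusted p = 0.0084 by edgeR). The 6 fibroblast markers summed to 12.2 to 28.0 CPM and 12.0 to 58.8 CPM, with none called by edgeR or DESeq2 on all libraries and 1, Col1a1, by edgeR without Dnmt1Δ/Δep replicate 2. Keratinocyte markers summed to 31571 to 35055 CPM in the control and 23154 to 24031 CPM in Dnmt1Δ/Δep libraries. None of the 8 was called by edgeR on all libraries, but 4 were lower at an unadjusted p under 0.05, and DESeq2 called 2 lower, Krt1 and Krt10, as many as edgeR did without the filter on low counts or without control replicate 1. Krt5 and Krt14 passed the adjusted p (0.038 and 0.028 by edgeR) at log2 fold changes of -0.50 and -0.61, under 2-fold. The differentiation keratins Krt1 and Krt10 had log2 fold changes of -2.30 and -1.58, with adjusted p of 0.085 and 0.069 by edgeR, and in both the groups overlapped. The part of these cells in the levels of the effectors was not tested.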

How the data were processed

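Poly(A) RNA of 3 control and 3 Dnmt1Δ/Δep keratinocyte cultures was compared, grouped by the genotype label. For the gene table, the authors trimmed reads, removed ribosomal reads, mapped what was left with STAR and ran htseq-count on reads that mapped uniquely. The deposited values are raw counts per gene. The submitters' processing notes name GRCm38, whereas the methods name a human build for this step. The 5 entries that name no gene (8.73% to 12.9% of counts) were left out. Repeat counts and the authors' comparison tables, with their mean counts, fold changes and p-values, were not used, nor were the 18 columns of values per library in them.

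The 10 effectors and all lists were chosen with earlier results of these data known. Counts were tested with edgeR 4.0.16 (R 4.3.3) by the quasi-likelihood test, with TMM scaling and filterByExpr (minimum counts 10 and 15), with Benjamini-Hochberg adjustment over all genes tested. A standard error is the log2 fold change without its sign, divided by the square root of F. RPKM used exon lengths of GENCODE M21. Both edgeR and DESeq2 appear in the methods, so DESeq2 1.42.0 was an alternative, beside other scaling factors, other filters, the replicate block and leaving out each library. The script was tested on simulated data. Deviations from the group means correlated within replicate numbers (0.45, 0.31 and 0.30 for 1, 2 and 3) and at most 0.11 across them, and the count table's headers give each number its own lane (3 lanes), so the numbers pair the libraries. No 2 libraries of a group were alike within sampling noise. Gene reads of 53433121 to 115526598 set the precision, and intervals and limits for counts of 0 cover counting error only, since reads carry no molecular identifiers.

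All 10 effectors, Dnmt1, its relatives Dnmt3a and Dnmt3b, and Uhrf1 were named. Every ligand with a read was named too, with the close relatives, the Isg15 conjugation genes, Stat2, Irf9, Irf7, Irf1, Ifnar1 and Ifnar2. So were the 5 largest and 5 smallest fold changes among other interferon-stimulated genes and the 5 genes with the most similar deviations. Genes outside this rule were named after their values were seen, apart from the cell type markers. Log2 fold changes of Dnmt3a, Dnmt3b and Uhrf1 were -0.04, -0.04 and -0.25, not called. Ifi27l1 did not match a gene of the table. A further gene of the naming rule is not reported here.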

Additional observations from a re-analysis of the deposited data

How the results depend on the processing

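Fold changes of the effectors kept their direction under all alternatives, except for Ifit2, whose values lay between -0.13 and 0.21. The effectors called higher, 7 as reported, numbered 8 by DESeq2 and without the filter on low counts, 7 with other scaling factors, and 4 of 5 tested at a mean RPKM of at least 1, where fewer genes were tested. Without 1 library they numbered 2 (control replicate 2) to 6 (control replicate 1 or 3), with 3 without Dnmt1Δ/Δep replicate 1 or 3 and 4 without replicate 2. Their median log2 fold change was 1.59 at that RPKM floor and 2.02 to 2.75 without 1 library. Pathway genes called higher numbered 11 at the floor and 15 to 28 without 1 library. All genes called higher numbered 395 at the floor and 559 to 1183 without 1 library, and all genes called lower 35 at the floor, 122 by DESeq2, 107 without the filter and 15 to 180 without 1 library. Apart from the use of fewer genes or libraries, the cause was not tested. With the replicate block, 7 effectors were called higher (median log2 fold change 2.36), 36 pathway genes, and 1173 genes higher and 95 lower in all, and among the interferon lists it also brought in Ifih1, Gbp3 and Igtp. Low counts of Ifi44, Ifit1 and Mx1 limit their fold changes.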

Other observations

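Genes for antigen presentation on MHC class I, which interferon also induces, were among the other interferon-stimulated genes and were looked at after their values were seen. Psmb8 and Psmb9, subunits of the immunoproteasome, rose by 3.71 and 2.26 on the log2 scale (adjusted p = 0.0020 and 0.0077 by edgeR). B2m, the light chain of MHC class I, had 58.0 ± 12.1 CPM against 258 ± 63.1 CPM in the Dnmt1Δ/Δep libraries (SD, n = 3), a rise of 2.15 (adjusted p = 0.0018 by edgeR). Tap1, which carries peptides into the endoplasmic reticulum, had a log2 fold change of 0.76 (adjusted p = 0.025 by edgeR), under 2-fold. Ly6e, a membrane protein that interferon also induces, stood at 262 ± 12.2 and 992 ± 16.0 CPM (SD, n = 3), a rise of 1.92 with an adjusted p of 0.00011 by edgeR.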
